A study of Mus musculus with 6 samples.

Results

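Fibronectin and 9 other secreted glycoproteins of the matrix around bone-forming cells are described here, by the rows of the deposited gene table whose symbol is Fn1, Postn, Tnc, Tnn, Thbs1, Thbs2, Fndc1, Egfl6, Hmcn1 or Ccdc80. These are 10 of 29018 genes, each with a single row, and all 10 passed the filter on low counts. Several were picked because they differed strongly between the genotypes in these same libraries. Their differences are therefore given as a description, without a test. RNA sequencing was done on osteoblasts grown from the calvaria (the skull vault) of neonatal mice and taken through osteogenic differentiation. There were 3 libraries of WT cells and 3 of NDR1 KO cells, made from polyA RNA, with no other treatment named. NDR1 is a serine/threonine kinase encoded by Stk38. Strain, sex, days of culture, the design of the KO allele and any pooling of animals were not given in the sources used here, so the replicates may be technical and p-values speak only of the variation among these 6 libraries.

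Fibronectin is secreted as a dimer, bound by integrins such as alpha5 beta1 and pulled by the cells into fibrils, on which collagen and other matrix proteins are laid down. Matricellular proteins such as thrombospondins, tenascins and periostin sit in the same matrix and change how cells attach to it and how growth factors reach them, rather than carrying load themselves. In the skull they are known from the periosteum, the sutures and healing bone, and osteoblast cultures secrete many of them. Setting KO beside WT addresses how osteoblasts labelled NDR1 KO differ from WT osteoblasts in differentiation.

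Library totals ran from 61461870 to 76159034 counts. Stk38 stood lower in KO but was still read, at 3843, 3004 and 4040 counts in KO and 4781, 5082 and 5331 in WT (log2 change -0.61 ± 0.05 SE, edgeR, Benjamini-Hochberg adjusted p = 8.10e-06). The osteoblast genes Col1a1 and Col1a2 were abundant, at 23045 and 20296 CPM in KO against 31684 and 28886 in WT, and the matrix gene Spp1 stood at 1730 against 658 CPM. The osteoblast transcription factor Sp7 was read at 35.8 against 32.3 CPM (not called). Runx2, also an osteoblast transcription factor, was lower in KO, at 77.8 against 91.2 CPM (log2 change -0.23 ± 0.05, edgeR adjusted p = 0.00756). Its call was lost in 3 alternative fits, all limma on FPKM, with adjusted p up to 0.130. The osteoblast marker Alpl was lower too, at 42.7 against 97.0 CPM (log2 change -1.19 ± 0.06, edgeR adjusted p = 1.81e-07). The sialoprotein gene Ibsp was read at 13.1 ± 1.34 CPM in KO (log2 change 0.39 ± 0.16, not called). The osteocyte genes Dmp1 and Phex stood at 8.08 against 18.3 and 5.17 against 7.61 CPM, and the late marker Bglap was near 0, at 0.390 against 0.732 CPM. CPM here are counts relative to the library total after TMM scaling in edgeR. Over all 18221 genes tested, 22.9% were called at an adjusted p under 0.05, with 49.0% of the calls higher in KO. That share became 63.0% when library totals were used without TMM and 64.4% with limma on log2(FPKM + 1), so small changes depend on the scaling.

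The members with the largest differences between genotypes were Hmcn1, Fndc1 and Egfl6, and the 250 bases before their start sites are shown because these 3 genes stood lower together. Tnn, also with a single listed start site, is shown beside them as a member with a smaller difference. Thbs2 has a single listed start site too, with a still smaller difference, and its letters are not shown. The letters are RefSeq's for GRCm38.p6, read 5′ to 3′ on the strand of the gene, which is the minus strand for all 4. They come from chr1:150993436-150993685, chr17:7827303-7827552, chrX:166585717-166585966 and chr1:160153576-160153825 in this order. Capitals mark any match, on either strand, to 6 motifs. These are TATAAA, the core of the box that positions transcription starts, GGGCGG, the GC box that Sp1 binds, and CCAAT, the box that NF-Y binds. The others are TGACTCA for the AP-1 factors, GGAATG for the TEAD factors and TGTGGT for the RUNX factors.
Hmcn1: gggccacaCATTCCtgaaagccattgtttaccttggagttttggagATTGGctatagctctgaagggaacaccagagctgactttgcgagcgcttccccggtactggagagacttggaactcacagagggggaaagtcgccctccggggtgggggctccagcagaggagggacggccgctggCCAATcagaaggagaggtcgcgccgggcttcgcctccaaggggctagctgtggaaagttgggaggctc
Fndc1: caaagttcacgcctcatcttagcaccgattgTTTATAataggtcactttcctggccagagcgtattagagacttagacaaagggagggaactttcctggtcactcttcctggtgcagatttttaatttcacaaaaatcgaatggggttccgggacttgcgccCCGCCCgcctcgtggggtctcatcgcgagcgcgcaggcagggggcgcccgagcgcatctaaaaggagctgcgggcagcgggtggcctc
Egfl6: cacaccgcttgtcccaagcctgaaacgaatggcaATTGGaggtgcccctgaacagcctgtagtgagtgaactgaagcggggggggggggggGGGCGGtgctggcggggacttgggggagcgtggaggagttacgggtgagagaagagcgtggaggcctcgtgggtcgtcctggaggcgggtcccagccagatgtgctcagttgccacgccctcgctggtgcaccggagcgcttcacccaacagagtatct
Tnn: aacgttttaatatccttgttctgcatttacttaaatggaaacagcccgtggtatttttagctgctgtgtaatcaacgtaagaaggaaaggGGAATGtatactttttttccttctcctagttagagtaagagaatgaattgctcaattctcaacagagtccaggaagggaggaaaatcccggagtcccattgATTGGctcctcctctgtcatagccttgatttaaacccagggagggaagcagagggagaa

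These upstream stretches differed in base composition. G and C made up 60.0% of the letters of Hmcn1, 56.0% of Fndc1, 64.8% of Egfl6 and 42.0% of Tnn, with a median of 52.4% over all 32851 windows of this length. The quartiles over all windows were 45.2% and 61.2%. Hmcn1 and Fndc1 lay between them, Egfl6 above and Tnn below. The other windows of members held 40.4% and 52.0% (2 starts of Postn), 44.8% and 51.2% (2 overlapping windows of Tnc) and 46.8% (Thbs2). For Fn1, Thbs1 and Ccdc80 no window was listed. A GC box was found in the windows of Fndc1, Egfl6 and Tnc, and 32.7% of all windows hold one. The windows of Hmcn1 and Thbs2 held 2 CCAAT boxes each and those of Egfl6 and Tnn 1 each, and 33.8% of all windows hold that motif. A TEAD match stood in the windows of Hmcn1 and Tnn, and in 12.6% of all windows. The TATA letters were found in the windows of Fndc1, Tnc and Thbs2, at 126 to 219 bases before the start. The downstream window of Postn held them 26 bases before the start, and 12.4% of all windows hold them. No member window held the AP-1 or RUNX letters, which 4.46% and 14.0% of all windows hold, and this says only that these letters are absent from these 250 bases. Motif matches are a description of the letters and were not tied to the expression values.

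Of the 10 members, the 3 KO libraries lay wholly below the 3 WT libraries in CPM for 8 and wholly above for 1, and 1 overlapped. Over all genes tested, 19.1% lay wholly below, 19.2% wholly above and 38.2% in either direction, but the members were chosen partly on this difference, so nothing is read from their count. Differences of at least 2-fold were limited to 3 members, all lower in KO, against 3.5% of all genes tested, and 4.7% of all genes stood at least 2-fold higher. The median log2 change was -0.39 over the members and 0.00 over all genes tested.

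Fibronectin was the member whose KO libraries all stood above the WT libraries. Fn1 (ENSMUSG00000026193, chromosome 1, 71624679 to 71692334, in deposited coordinates whose build was not settled) was read at 1936, 1797 and 1886 FPKM in KO replicates 1 to 3. In WT replicates 1 to 3 it stood at 1057, 1073 and 1098 FPKM. The lowest KO library was thus well above the highest WT library. In CPM the level was 22846 ± 912 in KO against 13581 ± 252 in WT (SD, n = 3), 1.68-fold higher, with a log2 change of 0.75 ± 0.03 (SE). By raw count Fn1 ranked 1 or 2 of all genes in the KO libraries and 4 in each WT library. It took 2.23% to 2.40% of all counts in KO and 1.32% to 1.36% in WT. The table gave 16 transcripts for this gene as 1 value, so the splice forms with and without the extra domains of cellular fibronectin could not be told apart.

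Macrophages also make fibronectin, and their markers moved in the same direction. Of 15 macrophage markers 13 rose (edgeR, Benjamini-Hochberg adjusted p under 0.05), with a summed level of 1011 to 1114 CPM in KO against 398 to 519 in WT and none of them at 0 in all 6 libraries, although Aif1 was at 0 in 1 WT library. Most of the sum was Lyz2, at 730 against 336 CPM. The part of macrophages in the Fn1 difference was not tested. In whole cultures, fewer cells of a type and less RNA per cell cannot be told apart, and this holds for each result here.

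Thrombospondins bind calcium, collagen and the receptors CD47 and CD36, and both Thbs1, known for activating latent TGF-beta, and its close relative Thbs2 were read at high levels with small differences between genotypes. Thbs1 (ENSMUSG00000040152, chromosome 2, 117942357 to 117957614) stood at 2713, 2661 and 2749 FPKM in KO and 2634, 2640 and 2734 in WT. The genotypes overlapped, and the log2 change was -0.03 ± 0.02 after TMM and 0.02 on library totals or in FPKM, so its sign depended on the scaling. By FPKM Thbs1 ranked 3 among all genes in each of the 6 libraries. Thbs2 (ENSMUSG00000023885, chromosome 17, 14885762 to 14914497) stood at 552, 562 and 556 FPKM in KO and 581, 602 and 586 in WT. Every KO library was below every WT library, but by little: 4068 ± 42.4 against 4462 ± 77.0 CPM, a log2 change of -0.13 ± 0.02 after TMM and -0.08 in FPKM.

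Tenascins are large multi-armed glycoproteins that loosen cell attachment. Tenascin-C is widespread in developing and healing connective tissue, while tenascin-W, encoded by Tnn, is known from periosteum and bone. Tnc (ENSMUSG00000028364, chromosome 4, 63878022 to 63965252) stood at 169, 167 and 174 FPKM in KO and at 231, 232 and 228 in WT. The 2 sets were far apart relative to their spread, with 1379 ± 36.8 against 1933 ± 18.7 CPM and a log2 change of -0.49 ± 0.02. Tnn (ENSMUSG00000026725, chromosome 1, 159912599 to 159981150) stood at 27.6, 26.7 and 31.2 FPKM in KO and 32.4, 34.3 and 34.0 in WT. KO replicate 3 came close to the WT libraries, and the log2 change of -0.29 ± 0.06 ran from -0.36 to -0.24 when 1 library was left out. Tnn had the widest spread of the members among KO libraries, with a coefficient of variation of 9.04% in CPM.

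Periostin is a fasciclin-domain protein that helps assemble collagen and fibronectin and is named for the periosteum. Postn (ENSMUSG00000027750, chromosome 3, 54268530 to 54298458) stood at 152, 153 and 156 FPKM in KO and at 161, 154 and 160 in WT, so the genotypes overlapped in FPKM. After TMM the KO libraries lay just below the WT libraries, at 1396 ± 31.1 against 1488 ± 37.2 CPM. The log2 change was -0.09 ± 0.02 there and -0.04 in FPKM. Ccdc80, a secreted matrix protein first described in fat tissue, was lower in KO. Ccdc80 (ENSMUSG00000022665, chromosome 16, 44913765 to 44948440) stood at 215, 204 and 213 FPKM in KO against 305, 294 and 304 in WT. The sets did not overlap, with 945 ± 30.3 against 1395 ± 30.7 CPM and a log2 change of -0.56 ± 0.03. Of 7 adipocyte markers 6 fell in the same libraries (edgeR, Benjamini-Hochberg adjusted p under 0.05). Their summed level was 128 to 137 CPM in KO and 271 to 282 in WT, but most of it was Lpl (122 against 251 CPM). Pparg was not called (10.6 against 12.2 CPM), and each other marker had a mean of at most 6.84 CPM (Fabp4 in WT). The part of adipocytes in the Ccdc80 difference was not tested.

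Egfl6, Fndc1 and Hmcn1 were the members that stood at less than 50% of the WT level. Egfl6 encodes a secreted protein with EGF repeats and a MAM domain that binds integrins. Egfl6 (ENSMUSG00000000402, chromosome X, 165306003 to 165368716) was read at 54.5, 55.2 and 49.4 FPKM in KO and at 182, 187 and 171 in WT. All KO libraries were far below all WT libraries, at 150 ± 7.95 against 526 ± 22.5 CPM, 3.51-fold lower with a log2 change of -1.81 ± 0.04. Its place by FPKM among all genes was 154 to 162 in WT and 678 to 767 in KO.

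Fndc1 encodes a secreted protein with fibronectin type III domains. Fndc1 (ENSMUSG00000071984, chromosome 17, 7957401 to 8046134) stood at 3.89, 3.28 and 3.61 FPKM in KO and at 17.5, 17.7 and 17.4 in WT. The WT libraries were nearly identical and the KO libraries all near 20% of them, at 37.1 ± 3.20 against 187 ± 1.10 CPM, 5.03-fold lower with a log2 change of -2.33 ± 0.05. Hmcn1 encodes hemicentin-1, a very long extracellular protein of the fibulin family. Hmcn1 (ENSMUSG00000066842, chromosome 1, 150438275 to 150869186) had 555, 502 and 588 counts in KO and 2944, 3065 and 2906 in WT. Per length it was the least abundant member, at 0.329, 0.363 and 0.341 FPKM in KO and 1.96, 2.04 and 1.89 in WT. Its difference was the largest of the members in edgeR, 5.89-fold lower with a log2 change of -2.56 ± 0.06. Because its FPKM were near or under 1, the log2 change shrank to -1.14 on log2(FPKM + 1).

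**Figure D1:**
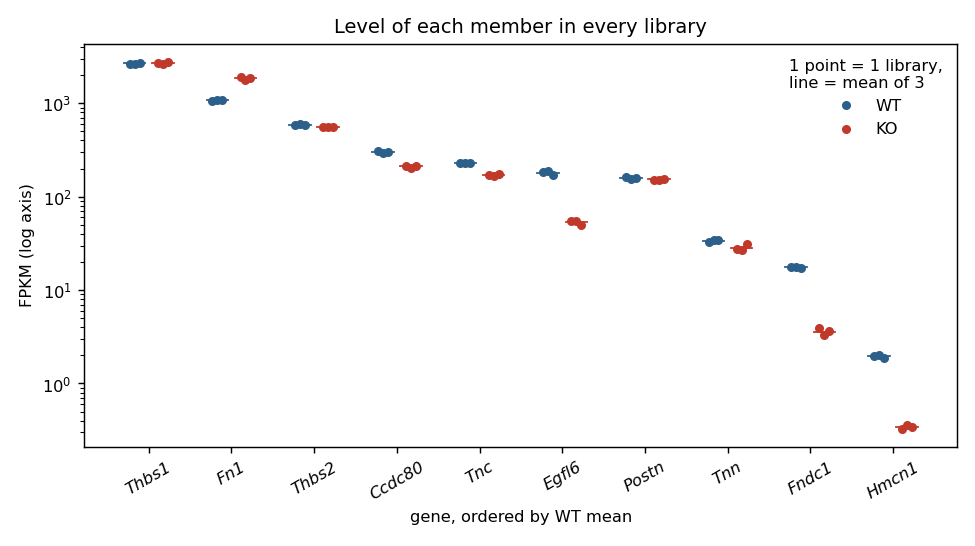
FPKM of each member in every library on a log axis, with WT in blue, KO in red and a line at the mean of 3 libraries. Fn1 is higher in KO, Thbs1 and Postn overlap, and Egfl6, Fndc1 and Hmcn1 have the widest gaps between genotypes.

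**Figure D2:**
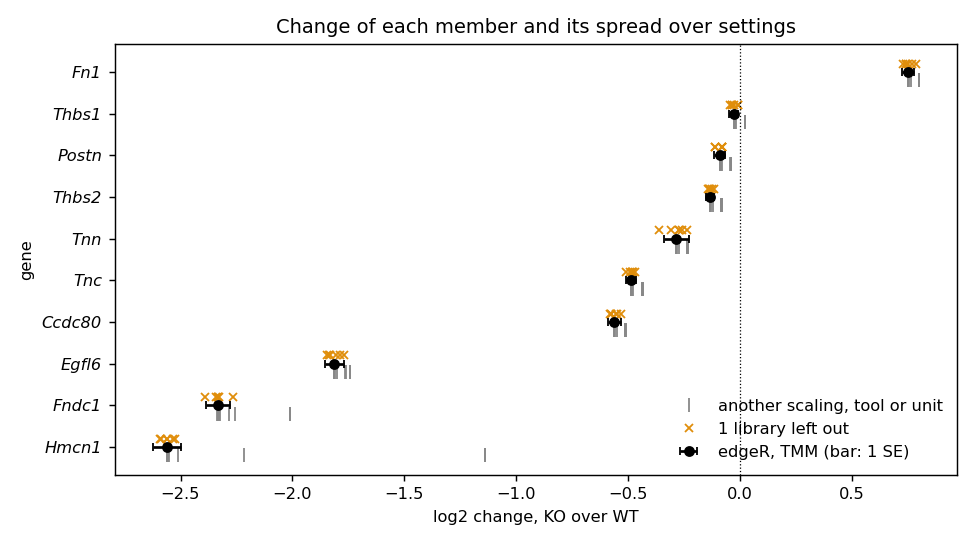
Log2 change of each member, KO over WT, from edgeR (black point, bar of 1 SE), with 1 library left out (orange) and under other scalings, tools or units (grey). Only Thbs1 crosses 0, and the grey mark at -1.14 for Hmcn1 is log2(FPKM + 1).

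Levels per length spanned a wide range within both genotypes. In WT the order by mean FPKM was Thbs1 (2669), Fn1 (1076), Thbs2 (590), Ccdc80 (301), Tnc (230), Egfl6 (180), Postn (158), Tnn (33.6), Fndc1 (17.5) and Hmcn1 (1.96). In KO it was Thbs1 (2707), Fn1 (1873), Thbs2 (556), Ccdc80 (211), Tnc (170), Postn (154), Egfl6 (53.0), Tnn (28.5), Fndc1 (3.60) and Hmcn1 (0.344). Egfl6 and Postn were the pair that changed places, and no neighbours in either order overlapped between their 3 libraries. Fn1 and Thbs1 together made up 79.2% to 79.8% of the members' summed FPKM in KO and 70.9% to 71.8% in WT. The 10 members took 4.76% to 4.97% of all counts in KO and 4.03% to 4.12% in WT.

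Ratios of FPKM within a library do not depend on the scaling between libraries. Fn1 over Thbs1 was 0.675 to 0.714 in KO and 0.401 to 0.406 in WT. Egfl6 over Postn was 0.316 to 0.362 in KO and 1.07 to 1.21 in WT, so periostin was the more abundant of the pair in KO and Egfl6 in WT. Paralogs kept closer ratios: Thbs1 over Thbs2 was 4.73 to 4.95 in KO and 4.38 to 4.67 in WT, and Tnc over Tnn 5.58 to 6.27 against 6.70 to 7.14. These ratios come from the same libraries and the same contrast that chose the members, and are a description.

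**Figure D3:**
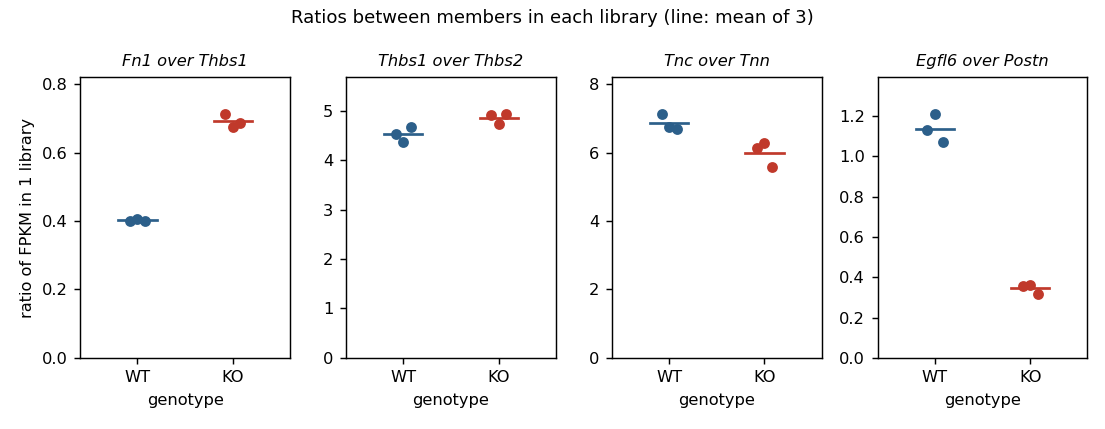
Ratio of FPKM between 2 members in each library, by genotype, with a line at the mean of 3. Fn1 over Thbs1 is 0.675 to 0.714 in KO against 0.401 to 0.406 in WT, and Egfl6 over Postn is 0.316 to 0.362 against 1.07 to 1.21.

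Relatives, receptors and partners of the members were listed by function, but with earlier results of these data known. The 9 lists held 82 genes, of which 81 were tested. Of these 25 rose and 29 fell in KO (edgeR, p adjusted over all genes by Benjamini-Hochberg, under 0.05), with a median log2 change of 0.00. That is 66.7% called, where 22.9% of all genes tested were called (11.2% higher, 11.7% lower). Listed genes were abundant, and among genes with a mean of at least 10 CPM 31.5% were called, against 49 of the 68 listed genes at that level. Many listed genes stood far above 10 CPM, so that cut does not match them for abundance. No enrichment is read from these shares. All but 2 of the 54 changes were under 2-fold: the testican Spock1 fell (log2 change -2.83 ± 0.24, named after its value was seen) and Stab1 rose. Spock1 was barely read, at 0.495 ± 0.113 CPM in KO against 3.53 ± 0.437 in WT.

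Among the closest relatives, the SPARC family moved mostly one way. SPARC, or osteonectin, is a collagen-binding matricellular protein abundant in bone. Of its 8 family members 7 fell and 1 rose, with a median log2 change of -0.70. The increase was that of the testican Spock3 (0.36 ± 0.12, edgeR adjusted p = 0.0489, named after its value was seen), and its call was lost in 8 of 14 alternative fits, with adjusted p up to 0.142. Sparc itself stood at 7528 ± 105 against 9209 ± 4.35 CPM (log2 change -0.29 ± 0.01, adjusted p = 3.01e-07 in edgeR) and Fstl1 at 2471 ± 44.6 against 3052 ± 51.8 (-0.30 ± 0.02). Smoc2 and Spock2 fell by 0.79 ± 0.04 and 0.91 ± 0.07 on the log2 scale.

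The CCN family, matricellular proteins made in response to TGF-beta and mechanical signals, held 3 genes that rose, 1 that fell and 2 not called, with a median of 0.45. Ccn2, or CTGF, stood at 806 ± 42.0 against 408 ± 13.2 CPM (log2 change 0.98 ± 0.04, adjusted p = 5.07e-08 in edgeR with Benjamini-Hochberg). Ccn1 rose by 0.49 ± 0.03 and Ccn5 by 0.41 ± 0.03, while Ccn4, a Wnt-induced member, changed by -0.43 ± 0.04. In a list of 8 textbook genes responsive to TGF-beta or YAP/TAZ outside that family, 2 rose and 3 fell. Amotl2 rose (0.24 ± 0.03), and Pmepa1 (-0.21 ± 0.04), Ltbp2 (-0.18 ± 0.04) and Skil (-0.37 ± 0.08) fell. These 3 decreases lost their call in limma on log2(FPKM + 1) without a filter, with adjusted p = 0.0508, 0.0929 and 0.112.

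Of the 5 remaining thrombospondins and tenascins 3 fell and 1 rose, with a median of -0.21. Thbs4 changed by -0.40 ± 0.06 and Thbs3 by -0.21 ± 0.04. The tenascins were barely read, with Tnxb at 2.63 ± 0.603 against 4.59 ± 0.543 CPM and Tnr, a tenascin of the nervous system, at 1.82 ± 0.08 against 1.02 ± 0.151. Tnr was not called without KO replicate 1, KO replicate 3, WT replicate 2 or WT replicate 3 (edgeR adjusted p = 0.0546, 0.0619, 0.0607 and 0.0658). Tnxb was not called without WT replicate 2 (edgeR adjusted p = 0.0526) or in limma on log2(FPKM + 1) without a filter (adjusted p = 0.0798), and Thbs3 was not called in the latter (adjusted p = 0.0770).

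Fibulins are elastic fibre and basement membrane proteins and the relatives of Hmcn1. Of 7 genes 2 rose, 3 fell and 2 were not called, with a median of -0.11. Efemp1 stood at 129 ± 3.93 against 79.1 ± 0.567 CPM (log2 change 0.70 ± 0.03, adjusted p = 1.91e-07 in edgeR) and Efemp2 rose by 0.21 ± 0.02, while Fbln2 (-0.19 ± 0.02) and Fbln5 (-0.24 ± 0.03) fell. In the list of other secreted adhesion proteins 6 of 12 rose, 2 fell and 4 were not called, with a median of 0.12. Those called higher numbered 5 or 6 over the 14 alternatives. Npnt, which encodes nephronectin and is a relative of Egfl6, stood at 188 ± 12.8 against 247 ± 6.21 CPM (log2 change -0.39 ± 0.04, adjusted p = 1.18e-04 in edgeR). Srpx2, which shares a domain with Ccdc80, changed by -0.34 ± 0.04, and the integrin ligand Edil3 by 0.48 ± 0.03. Stab1, a fasciclin-domain scavenger receptor known from macrophages, changed by 1.16 ± 0.09 (113 ± 4.31 against 50.7 ± 8.01 CPM), beside the higher macrophage markers given above, whose part was not tested.

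Cell surface receptors of these proteins moved in both directions. Of 16 tested 8 rose, 3 fell and 5 were not called, with a median of 0.11, and Itgb6 did not pass the count filter. Over the 14 alternatives the receptors called higher ran from 6 to 9, lowest in limma with a mean of at least 1 FPKM. Those called lower stayed at 3. The chains of the main fibronectin receptor were not called: Itga5 stood at 190 ± 7.93 against 199 ± 2.31 CPM (log2 change -0.06 ± 0.03) and Itgb1 at 1300 ± 17.9 against 1289 ± 19.2 CPM (0.01 ± 0.02), with edgeR Benjamini-Hochberg adjusted p = 0.221 and 0.749 (both named after their values were seen). Itgav, a chain of the RGD-binding integrins, rose by 0.20 ± 0.02, while its partners Itgb3 and Itgb5 changed by -0.80 ± 0.07 and -0.29 ± 0.02. The heparan sulfate co-receptor Sdc1 rose by 0.31 ± 0.03. Of 13 proteins that tie integrins to actin 1 rose, 3 fell and 9 were not called. Zyx rose by 0.22 ± 0.03 and Tns1, a tensin of fibrillar adhesions, changed by -0.42 ± 0.03. The smaller decreases of Ptk2, the focal adhesion kinase (-0.19 ± 0.04), and Tns3 (-0.09 ± 0.02) lost their calls in limma on log2(FPKM + 1), with adjusted p = 0.0649 and 0.310. Tns3 also lost its call in edgeR without KO replicate 1 or 2 or any 1 WT replicate, with adjusted p from 0.0522 to 0.0784, without a count filter (0.0666) and on library totals without TMM (0.276). On that FPKM scale 4 of the 13 rose and 1 fell.

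Of 6 listed matrix proteins and enzymes that join fibronectin in the matrix 4 fell, 1 rose and 1 was not called, with a median log2 change of -0.19. One of the 4 decreases, that of the collagen crosslinking enzyme Lox (-0.10 ± 0.03, edgeR adjusted p = 0.0208), lost its call in 7 of 14 alternative fits, with adjusted p up to 0.477 (named after its value was seen). Fbn1, the fibrillin of microfibrils, stood at 876 ± 12.2 against 1301 ± 32.1 CPM (log2 change -0.57 ± 0.02, adjusted p = 7.24e-08 in edgeR) and Fbn2 changed by -0.51 ± 0.04. Bmp1, the procollagen protease that binds periostin and fibronectin, changed by -0.28 ± 0.03. Ltbp1, which tethers latent TGF-beta to fibronectin, rose by 0.59 ± 0.04.

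**Figure D4:**
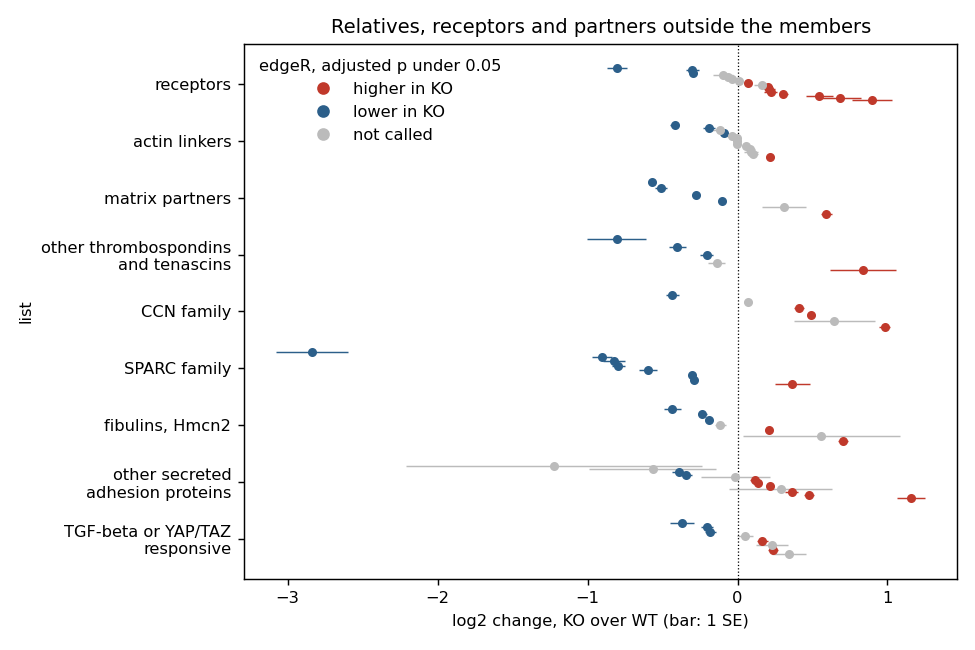
Log2 change, KO over WT, of the 81 tested genes outside the members, by list, with bars of 1 SE and colour for the call (red higher, blue lower, grey not called). In the SPARC family 7 of 8 lie left of 0, and in the CCN family 3 of 4 called genes lie right of it.

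Markers of other cells moved in the same libraries, and their part in the members' differences was not tested. Of 8 fibroblast and progenitor markers 7 fell, with a summed level of 13875 to 14110 CPM in KO against 17097 to 17283 in WT. Of 10 osteoblast markers 6 fell and 1 rose (44254 to 46630 against 60351 to 62095 CPM). Of 3 tendon markers 2 fell (224 to 227 against 434 to 447 CPM). Of 8 smooth muscle, myofibroblast and pericyte markers 4 rose and 1 fell (3214 to 3471 against 3656 to 3777 CPM), and of 6 tested endothelial markers 3 fell (7.16 to 8.23 against 13.5 to 13.8 CPM). Of 6 tested osteoclast markers 2 fell (236 to 240 against 455 to 460 CPM) and of 6 tested skeletal muscle markers 3 fell (5.23 to 6.49 against 9.57 to 11.0 CPM). Cartilage markers split, with 2 of 6 higher and 2 lower (4720 to 5117 against 3325 to 3702 CPM). Several of these sums were carried by few genes. These were Col1a1 and Col1a2 for osteoblasts, Tnmd for tendon (196 against 399 CPM), Col2a1 for cartilage (4488 against 2961) and Acta2 for smooth muscle (2308 against 2656). Others were Col3a1 for fibroblasts and progenitors (9992 against 11144 CPM, log2 change -0.16), Tek for endothelium (5.77 against 10.2) and Acta1 for skeletal muscle (4.07 against 5.31, not called). The osteoclast difference lay mainly in Mmp9 (3.72 against 144 CPM) and Ctsk (218 against 298), with Acp5 not called (14.2 against 13.6). Mybph of the muscle list and Cidec of the adipocyte list were at 0 in all KO libraries, and no listed marker in the table was at 0 in all 6. These counts come from the same edgeR test.

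Fndc1 and Thbs2 lie on chromosome 17, as Stk38 does, with starts 21.2 and 14.3 Mb from it in the deposited coordinates. Of the 648 genes tested within 25 Mb of Stk38 27.2% were called, against 22.8% on all other chromosomes, and 3.09% differed at least 4-fold, against 1.41%. The part of this position in the differences of Fndc1 and Thbs2 was not tested.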

How the data were processed

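The data are polyA RNA libraries of calvarial osteoblasts, 3 KO and 3 WT, grouped by their labels. The authors deposited 1 table with whole-number counts and FPKM (scaled to gene length and library total) for each library and gene. Per the submitters' processing notes cutadapt 1.9, HISAT2 2.0.4 and StringTie 1.3.4d were used, with roles, parameters, strand setting and counting method not given in the sources used here. These notes list a human build although all identifiers are of mouse, and 1.97% of 27342 shared identifiers had GENCODE M21 (GRCm38) coordinates, so the build was not settled.

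The main fit was edgeR 4.0.16 in R 4.3.3, a two-sided quasi-likelihood test after TMM and filterByExpr without covariates, with Benjamini-Hochberg adjustment over 18221 genes. SE was taken as |log2 change| divided by sqrt(F). Library totals were 61461870 to 76159034 counts. The common biological coefficient of variation was 12.6%. Tested on simulated data for this comparison, the fit found 79 of 100 planted 2-fold and 70 of 100 planted 1.5-fold changes among 18053 genes, with 7.45% false calls. Changes were planted only in genes above a floor on the mean count. Far fewer genes were changed there than the 4179 called in these data, so these shares need not hold here.

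Members and lists were chosen with earlier results of these data known. Named genes are all members, Stk38, the 3 genes most like Fn1, and up to 4 genes of lowest p in each list of relatives; Itga5, Itgb1, Spock1, Spock3, Lox and marker genes were named after their values were seen. Alternatives were DESeq2 1.42.0, other scalings, no filter, limma 3.58.1 on log2(FPKM + 1) or log2(FPKM + 0.1) with a mean of at least 1 FPKM, a replicate block and leaving out each library. Of 10 members 7 matched RefSeq's GRCm38.p6 promoter table.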

Additional observations from a re-analysis of the deposited data

How the results depend on the processing

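Under 14 alternatives Thbs1 was the member whose sign changed (log2 change -0.03 after TMM, 0.02 on library totals and in FPKM), and Fn1 ran from 0.73 to 0.80, Egfl6 from -1.85 to -1.74 and Fndc1 from -2.39 to -2.01. Hmcn1 was at -1.14 on log2(FPKM + 1), at -2.22 on log2(FPKM + 0.1) and between -2.59 and -2.53 with 1 library left out. Of 140 values for members 20 moved by more than 2 SE of the main edgeR fit. For the 36 relatives named by lowest p in each list, 23 of 500 values, in 8 genes, were no longer past the threshold, and 0 changed direction. That choice favours calls that hold. Lox and Spock3, named outside the 36, lost their calls in 7 and 8 of 14 alternatives.

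Genes called lower in KO numbered 2131 in edgeR but 1267, 1254 and 1246 in limma on log2(FPKM + 1), on log2(FPKM + 0.1) and on log2(FPKM + 1) without a filter. Related genes called ran from 45 to 59 over the alternatives, against 54. Among marker lists, genes called lower ran from 1 to 6 for adipocytes, 0 to 4 for skeletal muscle and 1 to 3 for endothelium, and macrophage genes called higher from 10 to 14. The lowest of these marker counts came from limma with a mean of at least 1 FPKM, where markers below that level were not tested. Without that filter limma on log2(FPKM + 1) called 5 adipocyte, 1 skeletal muscle and 2 endothelial genes lower, and 13 macrophage genes higher. Replicate numbers did not pair the libraries: deviations of same-numbered KO and WT libraries correlated at -0.05, -0.02 and 0.00. A replicate block gave 3888 calls over all genes, against 4179, and 57 among related genes.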

Other observations

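Among 1924 other genes with a mean of at least 100 CPM, those whose log2 CPM followed Fn1 most closely over the 6 libraries were Ptpn14 (Pearson r = 0.999, 197 CPM in KO against 140 in WT), Gm42047 (r = 0.999, 316 against 174 CPM) and Ccn2 (r = 0.999, 806 against 408 CPM). The 6 libraries fall into 2 genotypes that differ in Fn1, so r mainly follows the genotype, and 66 genes exceeded 0.99.

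Between replicates, the coefficients of variation of the members in CPM ran from 1.04% (Thbs2) to 9.04% (Tnn) in KO and from 0.591% (Fndc1) to 4.28% (Egfl6) in WT, with medians of 3.60% and 2.16%. Over 1925 genes with a mean of at least 100 CPM the medians were 2.30% and 2.27%.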
